A study of Arundo donax with 9 samples.

Results

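The genes described here are the unigenes of sulfate transport and sulfur assimilation in leaves of giant reed (Arundo donax L.) under long-term salt stress. A unigene is one cluster of transcripts of the de novo assembly, and it was taken as a member when its best Swiss-Prot description named a sulfate transporter, an ATP sulfurylase, an adenylylsulfate reductase, a sulfite reductase, a sulfite oxidase, a serine acetyltransferase, a cysteine synthase or a persulfide dioxygenase. This rule found 240 of the 255855 unigenes listed in the 9 libraries, under 35 protein names, and it used no expression value. All libraries came from G2, a single clone, so that the differences between groups apply to one genotype only. The G2-CK plants were irrigated every week without NaCl, the G2-S3 plants with 250 mM NaCl (severe stress) and the G2-S4 plants with 420 mM NaCl (extreme stress), with 3 biological replicates for each group. These doses are those of the sample labels, and the concentrations in the methods of the study differ slightly from them. Fully expanded leaves that were not senescing were sampled from potted plants, and poly(A) RNA of the leaf was sequenced. The comparisons ask how the expression of the sulfur genes differed between each salt dose and the control and between the 2 doses.

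Plants take up sulfur as sulfate, which plasma membrane transporters bring into the cell and tonoplast transporters release from the vacuole. In the plastid, ATP sulfurylase activates sulfate to adenosine 5'-phosphosulfate (APS), APS reductase reduces it to sulfite at a step known as a main control point of the pathway, and sulfite reductase carries it on to sulfide. Serine acetyltransferase and cysteine synthase, also called O-acetylserine (thiol)lyase, then build sulfide into cysteine, the source of sulfur for glutathione and methionine. In the opposite direction, sulfite oxidase of the peroxisome turns excess sulfite back into sulfate, and the mitochondrial persulfide dioxygenase ETHE1 oxidizes the persulfide that arises when cysteine is broken down.

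The orthology terms of the members, from KEGG, were in keeping with their names in most roles. All 9 unigenes named APS reductase carried the KEGG orthology term K05907 of that enzyme, all 6 sulfite reductase unigenes K00392, all 20 sulfite oxidase unigenes K00387 and all 4 ETHE1 unigenes K17725. The 30 unigenes named 5'-adenylylsulfate reductase-like had no orthology term, and most of their Pfam entries were thioredoxin (PF00085), so that they are described apart from APS reductase. In other roles the Pfam entries did not always follow the names. Those given first for cysteine synthase, chloroplastic/chromoplastic, were led by PF00382 (7 unigenes) and PF06433 (5), and the ETHE1 unigenes had none. What this means for the names was not tested. The first NR hit, from the non-redundant protein database, was a grass protein in 234 of the 239 members with a named species, most often from Setaria italica (118), Zea mays (41) or Sorghum bicolor (29). The members were 217 to 5643 bp long, with a median of 1744 bp, and 128 of them were listed in all 9 libraries while 22 were listed in 1 library only.

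The total per library, fitted from counts, FPKM and lengths, was 23.01 to 25.69 Mreads, of which 98.96 to 99.06% fell on the listed unigenes. A library lists only unigenes with an FPKM (fragments per kilobase of transcript, scaled to sequencing depth) of at least 0.31, so that an unlisted unigene is at 0.3 FPKM or less and not necessarily absent. G2-S3 replicate 3 was the library of its group closest to the controls in 18 of the 23 member protein names that passed the test between G2-S4 and G2-CK, against 4 for replicate 1 and 1 for replicate 2. The same share over all protein names is not given, so that this may not be particular to the sulfur genes. The defining markers of leaf tissue (Rubisco small chain, chlorophyll a-b binding proteins, photosystem subunits) were abundant in every library, with a summed level of 18663 to 22233 FPKM in G2-CK, 15433 to 17242 FPKM in G2-S3 and 6975 to 7608 FPKM in G2-S4, and 71 of the 99 tested were lower and 2 higher in G2-S4 than in G2-CK. The summed level of the senescence markers was 3000 to 3613 FPKM in G2-CK, 1810 to 2155 FPKM in G2-S3 and 1586 to 1950 FPKM in G2-S4. A single name, the protease SAG39, carried this difference, with a mean of 285 FPKM in G2-S4 against 2326 FPKM in G2-CK. Of the 70 tested senescence unigenes, 23 were higher and 10 lower in G2-S4 than in G2-CK, and the names STAY-GREEN (1.98), SAG12 (0.83) and pheophorbide a oxygenase (0.65) were called higher, with log2 fold changes in brackets. Of the phloem and vascular markers sought, only sucrose transport proteins (SUT) and SWEET sugar transporters had unigenes. SIEVE ELEMENT OCCLUSION, ALTERED PHLOEM DEVELOPMENT and xylem cysteine proteinase had none. The unigenes found summed to 1052 to 1154, 999 to 1209 and 1232 to 1267 FPKM in G2-CK, G2-S3 and G2-S4. Bundle sheath and endodermis markers summed to 1038 to 1176, 1124 to 1238 and 1297 to 1363 FPKM. In these lists, 34 of 87 and 41 of 189 tested unigenes were higher and 12 and 18 lower in G2-S4 than in G2-CK. Over all unigenes tested, 14.2% were higher and 13.8% lower in this comparison, which is also the measure for the leaf and senescence counts above. The part that these marker levels have in the results was not tested.

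After the filter on low counts, 188 of the 240 members were tested by edgeR's quasi-likelihood test, with p-values adjusted over all 127209 unigenes tested. In G2-S4 vs G2-CK, 64 members were higher and 35 lower at an adjusted p under 0.05, while 28.0% of all unigenes tested were called in either direction (14.2% higher, 13.8% lower). In G2-S3 vs G2-CK, 27 members were higher and 7 lower, where 5.75% of all unigenes were called (3.42% higher, 2.33% lower), and 33 members were called at both doses. In G2-S4 vs G2-S3, 43 members were higher and 20 lower, where 14.1% of all unigenes were called (7.24% higher, 6.89% lower). The counts of the severe dose moved when a library of either group was left out. The 27 higher calls became 10, 6 and 7 without G2-CK replicate 1, 2 or 3, and 9 and 10 without G2-S3 replicate 1 or 2. Without G2-S3 replicate 3 they became 34. The 7 lower calls became 3 without G2-CK replicate 2 and 4 without G2-S3 replicate 1 or 2. The 20 lower calls of G2-S4 vs G2-S3 became 11 without G2-S3 replicate 1 and 12, 11 and 13 without G2-S4 replicate 1, 2 or 3. The FPKM of 71 members was higher and that of 61 lower in every G2-S4 than in every G2-CK library (16.9% and 27.1% of all unigenes tested), with 40 and 24 in G2-S3 vs G2-CK (10.1% and 14.6%) and 54 and 46 in G2-S4 vs G2-S3 (13.2% and 17.4%). In tissue RNA, fewer cells of a type and less RNA per cell cannot be told apart, and this holds for every difference given here.

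The roles moved unequally, as the plot of fold changes by role shows. In G2-S4 vs G2-CK, 8 of the 9 APS reductase unigenes, all 6 sulfite reductase unigenes, 13 of the 19 tested serine acetyltransferase unigenes and 3 of the 4 ETHE1 unigenes rose, and none in these roles fell. Sulfate transporters went both ways, with 28 of 66 tested unigenes higher and 17 lower. Among the 28 were all 7 unigenes of sulfate transporter 3.5 and some of 3.1 that were unlisted in G2-CK. The unigene of serine acetyltransferase 3, among the 13, was also unlisted there. Such unigenes passed the filter on low counts only through the salt-treated libraries, so that their calls add no support. They are also among the members counted as higher above. Of the 43 tested cysteine synthase unigenes, 15 fell and 3 rose, of the 15 sulfite oxidase unigenes 1 fell and 2 rose, and of the 23 APS reductase-like unigenes 2 fell and 1 rose. None of the 3 tested ATP sulfurylase unigenes was called at either dose, and their unadjusted edgeR p was under 0.05 for 0 of them in G2-S3 and for 1 in G2-S4, which DESeq2 called lower. Over all 188 tested members, the median log2 fold change was 0.13 in G2-S4 vs G2-CK and 0.13 in G2-S3 vs G2-CK, against -0.03 and 0.00 over all unigenes tested.

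**Figure D1:**
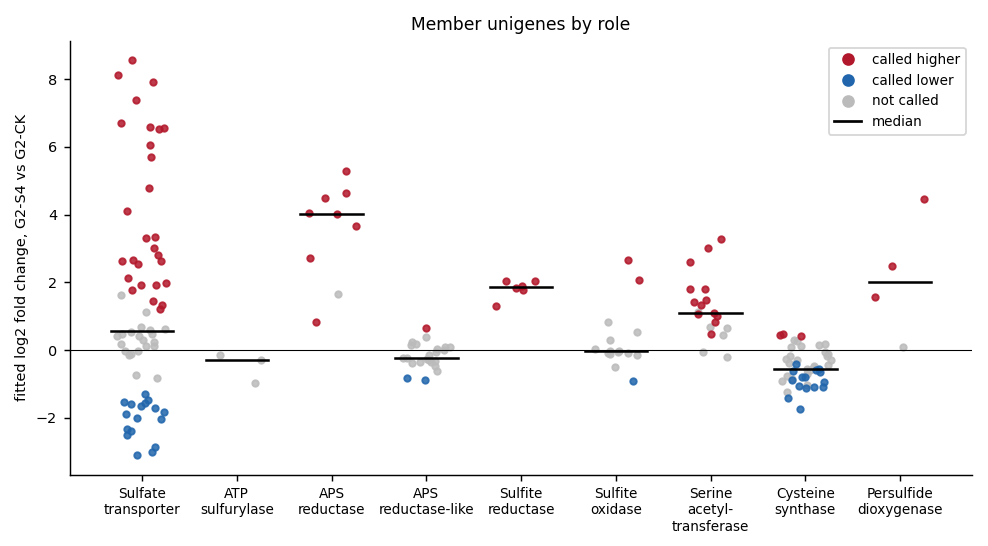
Fitted log2 fold change of each of the 188 tested member unigenes in G2-S4 vs G2-CK (vertical axis), by role (horizontal axis), with red points for unigenes called higher, blue for called lower, grey for not called, and a black bar at the median of the role. APS reductase, sulfite reductase, serine acetyltransferase and persulfide dioxygenase have red and grey points only, while sulfate transporters spread on both sides of 0. Fitted fold changes of unigenes unlisted in the controls depend on the limit put in for an unlisted value.

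Since one gene of this polyploid can be split over several unigenes, and the counting tool divides reads among near-identical copies, the counts of all unigenes under one protein name were also summed and tested over all 12233 names, 32 of them from the 35 member names. In G2-S4 vs G2-CK 14 names were higher and 9 lower, where 49.4% of all names were called (25.9% higher, 23.5% lower). In G2-S3 vs G2-CK 8 were higher and 3 lower, where 15.4% were called (9.3% higher, 6.14% lower), and in G2-S4 vs G2-S3 9 were higher and 6 lower, where 33.4% were called (16.8% higher, 16.5% lower). The 8 higher names of the severe dose became 4, 4 and 3 without G2-CK replicate 1, 2 or 3, 3 and 4 without G2-S3 replicate 1 or 2, and 5 without G2-S4 replicate 2, and the 3 lower names became 1 without G2-CK replicate 2 or 3, G2-S3 replicate 1 or 2, or G2-S4 replicate 2. The levels below are summed FPKM per name, as mean ± SD over 3 libraries, and the fold changes are the log2 values of the summed counts with their standard error.

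**Figure D2:**
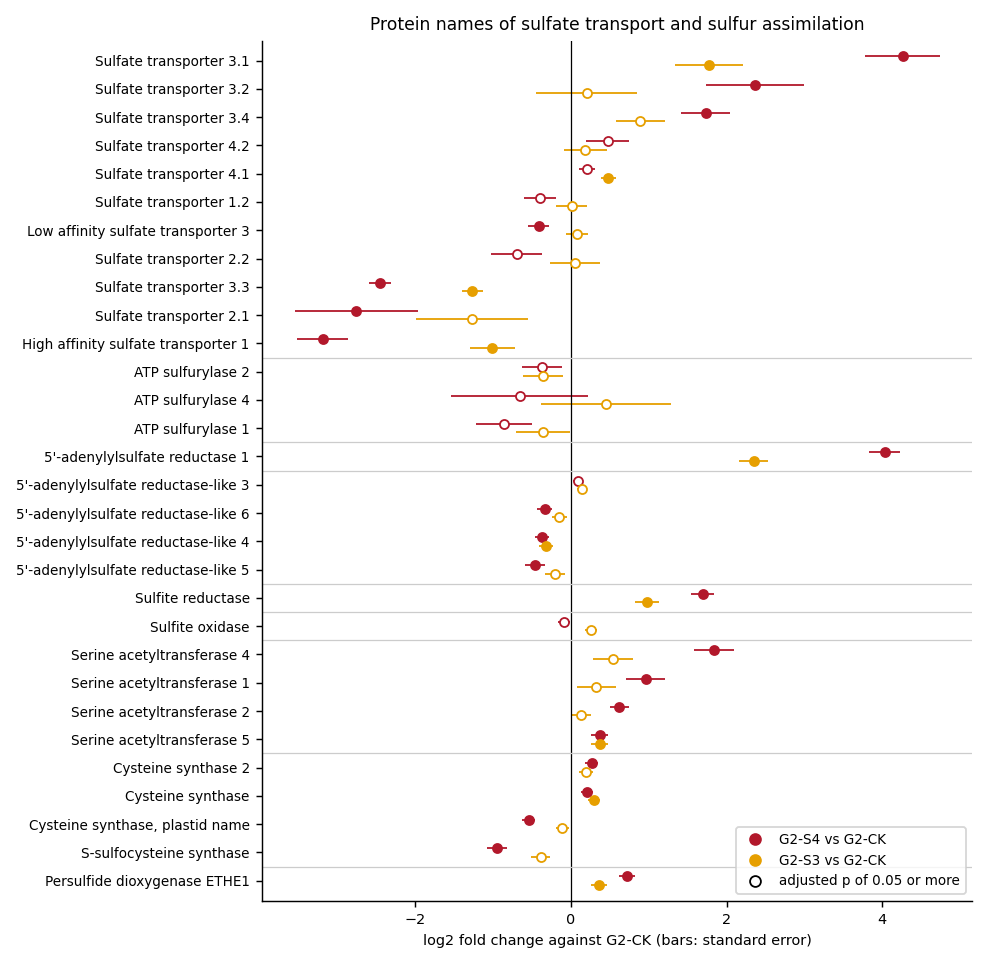
Log2 fold change of the summed counts of each member protein name (horizontal axis, bars for the standard error) in G2-S4 vs G2-CK (red) and G2-S3 vs G2-CK (orange), with open symbols for an adjusted p of 0.05 or more. Sulfate transporter 3.1 and 5'-adenylylsulfate reductase 1 lie above 4 in G2-S4, and sulfate transporters 3.3 and 2.1 and high affinity sulfate transporter 1 lie below -2. Sulfate transporter 3.5 and serine acetyltransferase 3, unlisted in all G2-CK libraries, are not drawn.

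Among the sulfate transporters of group 3, the names 3.1, 3.5, 3.4 and 3.2 rose and 3.3 fell at the extreme dose. These proteins are plasma membrane or plastid envelope transporters in Arabidopsis thaliana, and some of them move sulfate into the chloroplast. Sulfate transporter 3.1, with 12 unigenes, stood at 31.8, 32.6 and 32.8 FPKM in G2-CK, 100.8, 100.5 and 35.3 FPKM in G2-S3 and 306, 418 and 534 FPKM in G2-S4. All 3 salt-treated libraries of each dose lay above the controls, but G2-S3 replicate 3 only just. The log2 fold change was 4.26 ± 0.48 in G2-S4 vs G2-CK (adjusted p = 0.000118), 1.77 ± 0.44 in G2-S3 vs G2-CK (adjusted p = 0.0272) and 2.49 ± 0.44 in G2-S4 vs G2-S3 (adjusted p = 0.00288). The call in G2-S3 was lost without any one of the 3 G2-CK libraries or without G2-S3 replicate 1 or 2, with adjusted p up to 0.0973, and under the replicate block, with an adjusted p of 0.0722. All 11 of its tested unigenes rose in G2-S4 vs G2-CK. Of the 6 that shared their first NR hit with unigenes named 3.5, only Cluster-14027.180738 was listed in G2-CK. The others passed the filter on low counts through the salt-treated libraries alone, so that their calls add no support.

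Probable sulfate transporter 3.5, with 7 unigenes, was unlisted in the 3 G2-CK libraries and stood at 24.8, 45.8 and 1.86 FPKM in G2-S3 and at 225, 296 and 299 FPKM in G2-S4. Its mean in G2-S4 was thus at least 130-fold higher than the limit that 0.3 FPKM for each of its 7 unigenes sets in G2-CK, while of the G2-S3 libraries replicates 1 and 2 lay above this limit and replicate 3 below it. The sum passed the test in both comparisons (adjusted p = 0.000627 in G2-S4 and 0.0131 in G2-S3) under every alternative run, and all 7 unigenes were called in G2-S4 vs G2-CK and 6 in G2-S3 vs G2-CK. Being unlisted in G2-CK, these unigenes passed the filter on low counts only through the salt-treated libraries, so that the calls add no support to the levels. Between the doses the log2 fold change was 3.55 ± 0.92 (adjusted p = 0.0234), a call that was lost without G2-S3 replicate 1 (adjusted p = 0.0749) or G2-S4 replicate 2 (adjusted p = 0.0563). G2-S3 replicate 3 again had the lowest level of its group.

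Single unigenes of these names had the largest increases among the members with a mean of at least 1 FPKM. Cluster-14027.214189, named sulfate transporter 3.1, was unlisted in G2-CK, had 11.2, 16.4 and 1.12 FPKM in G2-S3 and 79.7, 101.6 and 122 FPKM in G2-S4, and exceeded the listing limit at least 338-fold in G2-S4. Cluster-14027.254608, named sulfate transporter 3.5, was listed in 2 of the 3 G2-S3 libraries and exceeded the limit at least 251-fold in G2-S4. Other unigenes of sulfate transporter 3.5 were at least 215-fold (Cluster-14027.32360), 155-fold (Cluster-14027.38512) and 95.4-fold (Cluster-14027.255033) higher in G2-S4 than the limit in G2-CK, and Cluster-14027.256762 at least 88-fold. These 6 unigenes were unlisted in G2-CK and passed the filter on low counts through the salt-treated libraries alone. In G2-S3 their calls depended on how unlisted values were set, as 5 of these 6 unigenes, the exception being Cluster-14027.214189, lost the call with unlisted values at 0. All 6 lost it without G2-CK replicate 2, the same 5 also without G2-CK replicate 1 or 3, and 4 of them, the exceptions being Cluster-14027.214189 and Cluster-14027.32360, without G2-S3 replicate 1 or 2, with adjusted p up to 0.166. The calls of Cluster-14027.38512 and Cluster-14027.256762 were also lost without G2-S4 replicate 1 or 2, and that of the second without G2-S4 replicate 3. Cluster-14027.180738, the most abundant unigene of sulfate transporter 3.1 by mean FPKM, stood at 5.82 ± 0.356 FPKM in G2-CK, 30 ± 17.9 FPKM in G2-S3 and 146 ± 44.5 FPKM in G2-S4, with log2 fold changes of 2.43 and 4.78 in G2-S3 and G2-S4 vs G2-CK (edgeR adjusted p = 0.0147 and 9.2e-05). Its call in G2-S3 was also lost with unlisted values at 0, without the filter on low counts and without any 1 of the 3 G2-CK libraries. The same held without G2-S3 replicate 1 or 2, with adjusted p from 0.0518 to 0.0832 over these fits.

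The names 3.1 and 3.5 may not part the genes cleanly, since 6 of the 12 unigenes named sulfate transporter 3.1 had the same first NR hit as unigenes named 3.5. This split was made after the values were seen and is given as a description without a test. The 6 unigenes summed to 5.82 ± 0.356 FPKM in G2-CK, 49.5 ± 33.1 FPKM in G2-S3 and 308 ± 109.5 FPKM in G2-S4. The other 6 summed to 26.5 ± 0.884 FPKM in G2-CK, 29.4 ± 5.28 FPKM in G2-S3 and 112 ± 12.9 FPKM in G2-S4, so that most of the control level and little of the difference at the severe dose lay in them.

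Probable sulfate transporters 3.4 and 3.2 rose at the extreme dose. The first, a name under which a phosphate transporter of the rice node falls, stood at 17.1 ± 1.26 FPKM in G2-CK, 30.3 ± 14.6 FPKM in G2-S3 and 56.4 ± 8.69 FPKM in G2-S4, with a log2 fold change of 1.73 ± 0.31 in G2-S4 vs G2-CK (adjusted p = 0.0016) and 0.90 ± 0.31 in G2-S3 vs G2-CK (adjusted p = 0.0805). Its G2-S3 libraries had 30.0, 45.0 and 15.7 FPKM, the third of them just below the lowest control, 16.0 FPKM. Sulfate transporter 3.2 had 12.8, 11.6 and 13.9 FPKM in G2-S4 against 3.1, 2.1 and 1.15 FPKM in G2-CK, a log2 fold change of 2.36 ± 0.63 (adjusted p = 0.0123), while G2-S3 differed from G2-CK by 0.20 ± 0.65 (adjusted p = 0.875). Its call between the doses (2.16, adjusted p = 0.0266) was lost without any 1 of the G2-S4 libraries (adjusted p from 0.0611 to 0.0676).

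Probable sulfate transporter 3.3 fell at both doses. This transporter, linked to the phytic acid content of the grain in rice and barley, had 116, 91.2 and 73.8 FPKM in G2-CK, 47.9, 40.9 and 36.5 FPKM in G2-S3 and 19.5, 14.2 and 19.5 FPKM in G2-S4, with no overlap between any of the groups. The log2 fold change was -2.45 ± 0.14 in G2-S4 vs G2-CK (adjusted p = 6.21e-06), -1.26 ± 0.13 in G2-S3 vs G2-CK (adjusted p = 0.00133) and -1.18 ± 0.14 in G2-S4 vs G2-S3 (adjusted p = 0.000369), and it passed the test in all 3 comparisons under every alternative run. Of its 10 tested unigenes, 9 fell in G2-S4 and 5 in G2-S3 vs G2-CK. Cluster-14027.186735 stood at 25.8 ± 6.37 FPKM in G2-CK, 11.1 ± 2.51 FPKM in G2-S3 and 2.95 ± 0.533 FPKM in G2-S4 and fell by 3.01 on the log2 scale at the extreme dose (edgeR adjusted p = 3.69e-05). Cluster-14027.186746 fell by 1.19 at the severe and by 2.38 at the extreme dose. In contrast, Cluster-14027.186744 fell by 2.02 at the severe dose and by 2.01 at the extreme dose, with 0.807 ± 0.272 FPKM in G2-S3 and 0.76 ± 0.123 FPKM in G2-S4 against 3.38 ± 0.69 FPKM in G2-CK. Cluster-14027.186746 and Cluster-14027.186744, of 4928 and 5569 bp, also carried Pfam entries of protein kinases (PF00069, PF07714) beside that of sulfate transporters (PF00916). They may thus be fused assemblies, and the part of their reads that comes from a sulfate transporter was not tested.

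**Figure D3:**
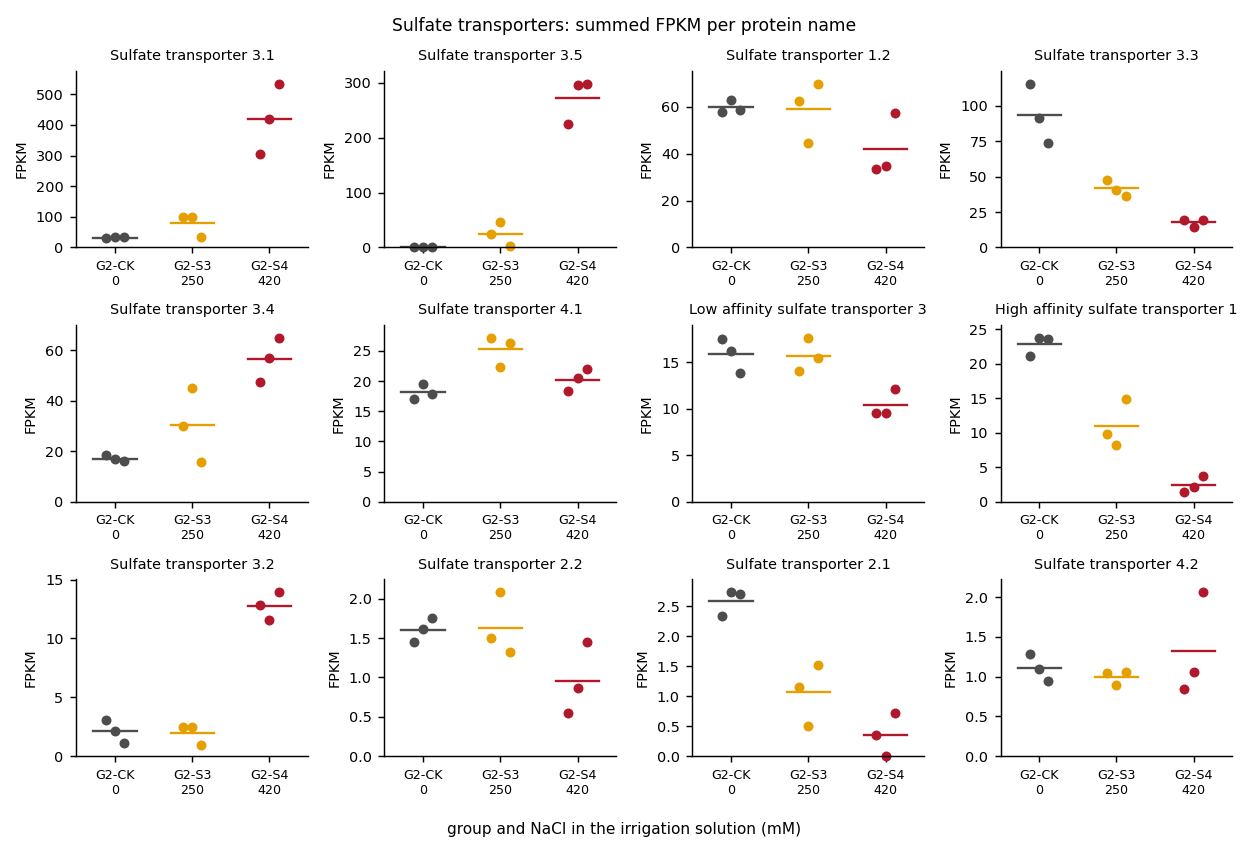
Summed FPKM (vertical axes, each from 0) of the unigenes under 12 sulfate transporter names in the 9 libraries, by group and NaCl in the irrigation solution in mM (horizontal axes), with points for libraries, bars for group means and unlisted values drawn at 0. Names 3.1, 3.5, 3.4 and 3.2 are highest in G2-S4, names 3.3, 2.1 and high affinity sulfate transporter 1 are lowest in G2-S4, and 4.1 is highest in G2-S3.

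Group 1 transporters are high affinity carriers known best from roots, and both tested names were lower at the extreme dose in at least part of their unigenes. High affinity sulfate transporter 1, a single unigene of 635 bp (Cluster-14027.131157), had 21.0, 23.7 and 23.6 FPKM in G2-CK, 9.88, 8.21 and 14.8 FPKM in G2-S3 and 1.44, 2.12 and 3.70 FPKM in G2-S4. It fell by 3.19 on the log2 scale in G2-S4 vs G2-CK (SE 0.33, adjusted p = 7.35e-05) and by 2.18 in G2-S4 vs G2-S3 (adjusted p = 0.00134). Its call in G2-S3 vs G2-CK (-1.01 ± 0.29, adjusted p = 0.0444) was lost without any 1 of the G2-CK libraries, without G2-S3 replicate 1 or 2 and without G2-S4 replicate 2, with adjusted p up to 0.141. This call was also lost without the filter on low counts. Tested as a unigene, with p-values adjusted over all unigenes, it was not called in G2-S3 (-0.98, adjusted p = 0.0641).

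Sulfate transporter 1.2 did not pass the test as a sum, with 59.9 ± 2.72 FPKM in G2-CK, 58.9 ± 13.1 FPKM in G2-S3 and 41.9 ± 13.4 FPKM in G2-S4 (-0.39 ± 0.20 in G2-S4 vs G2-CK, adjusted p = 0.132). Yet 4 of its 7 tested unigenes fell in G2-S4 vs G2-CK. Cluster-14027.209602 had 8.75, 9.57 and 9.87 FPKM in G2-CK, 4.99, 3.40 and 5.76 FPKM in G2-S3 and 1.18, 1.12 and 1.22 FPKM in G2-S4, and fell by 0.94 at the severe dose (edgeR adjusted p = 0.0103) and by 2.85 at the extreme dose (edgeR adjusted p = 6.5e-06). The severe call was lost without G2-CK replicate 2 or 3 and without the filter on low counts, with adjusted p up to 0.054. Cluster-14027.140590, Cluster-14027.170799 and Cluster-14027.152812, named here after their values were seen, fell by 1.71, 1.31 and 1.83 at the extreme dose. Its 2 most abundant copies, Cluster-14027.170798 and Cluster-14027.152809, were not called, with log2 fold changes of -0.04 and 0.25, and held 17.8 ± 6.66 and 18.4 ± 5.31 FPKM in G2-S4 against 20.1 ± 0.458 and 17.1 ± 2.18 FPKM in G2-CK.

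Of the group 2 transporters, low affinity carriers of vascular tissue, sulfate transporters 2.1 and 2.2 were at low levels. Sulfate transporter 2.1, a single unigene, had 0.36 FPKM, no listing and 0.72 FPKM in G2-S4 against 2.33, 2.73 and 2.71 FPKM in G2-CK and fell by 2.75 on the log2 scale (SE 0.79, adjusted p = 0.0167). Sulfate transporter 2.2 stood at 0.953 ± 0.457 FPKM in G2-S4 and 1.61 ± 0.155 FPKM in G2-CK and was not called (-0.69, adjusted p = 0.103). Low affinity sulfate transporter 3 stood at 10.4 ± 1.49 FPKM in G2-S4 against 15.9 ± 1.85 FPKM in G2-CK (-0.41 ± 0.14, adjusted p = 0.0324), no longer called without G2-CK replicate 1 or 2 or G2-S4 replicate 1 or 2 and under the replicate block, with adjusted p from 0.0653 to 0.0963. Its unigene Cluster-14027.75358 had 0.35, 0.45 and 0.57 FPKM in G2-S4 and 0.98, 1.93 and 1.67 FPKM in G2-S3 and fell by 1.65 on the log2 scale between the doses (edgeR adjusted p = 0.00718).

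Of the group 4 transporters, which release sulfate from the vacuole, one name was slightly higher at the severe dose. Sulfate transporter 4.1 had 27.1, 22.4 and 26.3 FPKM in G2-S3 against 17.1, 19.5 and 17.8 FPKM in G2-CK (0.48 ± 0.10, adjusted p = 0.015), a call lost without G2-CK replicate 1 or 3 or G2-S3 replicate 1, with adjusted p from 0.0595 to 0.0762. In G2-S4 it stood at 20.3 ± 1.83 FPKM, which did not pass the test against G2-CK (0.21 ± 0.10, adjusted p = 0.116). Sulfate transporter 4.2 stood at 0.84 to 2.06 FPKM in all libraries and was not called, and sulfate transporter 1.3 was listed at most at 0.84 FPKM in any library and was not tested.

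ATP sulfurylase, the activating enzyme, had no name that passed the test, and its main name was lower in mean under salt. ATP sulfurylase 1 had 69.4, 82.2 and 88.9 FPKM in G2-CK, 81.0, 34.8 and 66.7 FPKM in G2-S3 and 26.6, 34.4 and 66.5 FPKM in G2-S4. All G2-S4 values lay under those of G2-CK, but the spread was wide, and the log2 fold changes of -0.86 ± 0.35 in G2-S4 (adjusted p = 0.0711) and -0.36 ± 0.35 in G2-S3 (adjusted p = 0.529) did not pass. In G2-S4 it was called lower under 3 of 15 alternatives, which were DESeq2 and the fits that left out G2-S4 replicate 3 or G2-S3 replicate 2, with an adjusted p of 0.00937 without G2-S4 replicate 3, and the adjusted p over the alternatives reached 0.196. Cluster-14027.240833, with 30.9 ± 16.9 FPKM in G2-S4 and 66 ± 8.21 FPKM in G2-CK, held most of this level. ATP sulfurylases 2 and 4 stood at 5.86 ± 1.36 and 0.753 ± 0.776 FPKM in G2-S4 against 7.8 ± 2.46 and 1.26 ± 0.197 FPKM in G2-CK, without a call, although the first was called lower without G2-CK replicate 3. The 6 unigenes of this role shared the orthology term K13811 with 6 unigenes that the Swiss-Prot names did not bring in.

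APS reductase rose at both doses. Probable 5'-adenylylsulfate reductase 1, the only name of the enzyme, had 19.1, 16.7 and 19.6 FPKM in G2-CK, 94.9, 107 and 69.5 FPKM in G2-S3 and 227, 307 and 306 FPKM in G2-S4, so that the 3 groups did not overlap. The log2 fold change was 4.03 ± 0.20 in G2-S4 vs G2-CK (adjusted p = 3.56e-06), 2.35 ± 0.19 in G2-S3 vs G2-CK (adjusted p = 0.000396) and 1.68 ± 0.18 in G2-S4 vs G2-S3 (adjusted p = 0.000248). These calls held under every alternative run. The increase was shared by the copies, as 6 of 9 unigenes rose at the severe dose and 8 at the extreme dose.

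The leading copy, Cluster-14027.101414, stood at 10.4 ± 1.14 FPKM in G2-CK, 53.1 ± 10.4 FPKM in G2-S3 and 152 ± 26.6 FPKM in G2-S4 and had log2 fold changes of 2.42 and 4.01 at the severe and extreme dose vs G2-CK (edgeR adjusted p = 0.000261 and 2.01e-06). Cluster-14027.242632 stood at 3.99 ± 0.278, 14.2 ± 2.49 and 45.8 ± 7.32 FPKM in G2-CK, G2-S3 and G2-S4, with log2 fold changes of 1.89 and 3.66. Cluster-14027.93838 was low in the controls, at 1.64 ± 0.635 FPKM, and reached 25.7, 40.6 and 45.2 FPKM in G2-S4 (4.64 ± 0.46, edgeR adjusted p = 6.42e-05). In G2-S3 it had 9.54, 9.16 and 3.17 FPKM, the lowest again in replicate 3, and its call there (2.22, adjusted p = 0.0162) was lost without any 1 of the G2-CK libraries and without G2-S3 replicate 1 or 2, with adjusted p up to 0.0857. This call was also lost with unlisted values at 0 and without the filter on low counts.

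Sulfite reductase, which reduces sulfite with electrons from ferredoxin, also rose stepwise with the dose. It had 88.7, 90.4 and 69.9 FPKM in G2-CK, 147, 180 and 130 FPKM in G2-S3 and 281, 292 and 261 FPKM in G2-S4, again without overlap. The log2 fold change was 1.69 ± 0.15 in G2-S4 vs G2-CK (adjusted p = 3.7e-05), 0.98 ± 0.15 in G2-S3 vs G2-CK (adjusted p = 0.00491) and 0.71 ± 0.15 in G2-S4 vs G2-S3 (adjusted p = 0.00613), and the 3 calls held under every alternative run. All 6 unigenes rose in G2-S4 and 4 in G2-S3. Among them, Cluster-14027.198720 stood at 104 ± 5.91 FPKM in G2-S4 against 33.4 ± 4.65 FPKM in G2-CK (1.77), Cluster-14027.198721, a fragment of 425 bp, at 113 ± 12.2 against 29.1 ± 9.6 FPKM (2.04), and Cluster-14027.198717 at 44.5 ± 1.4 against 13.7 ± 2.25 FPKM (1.83).

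**Figure D4:**
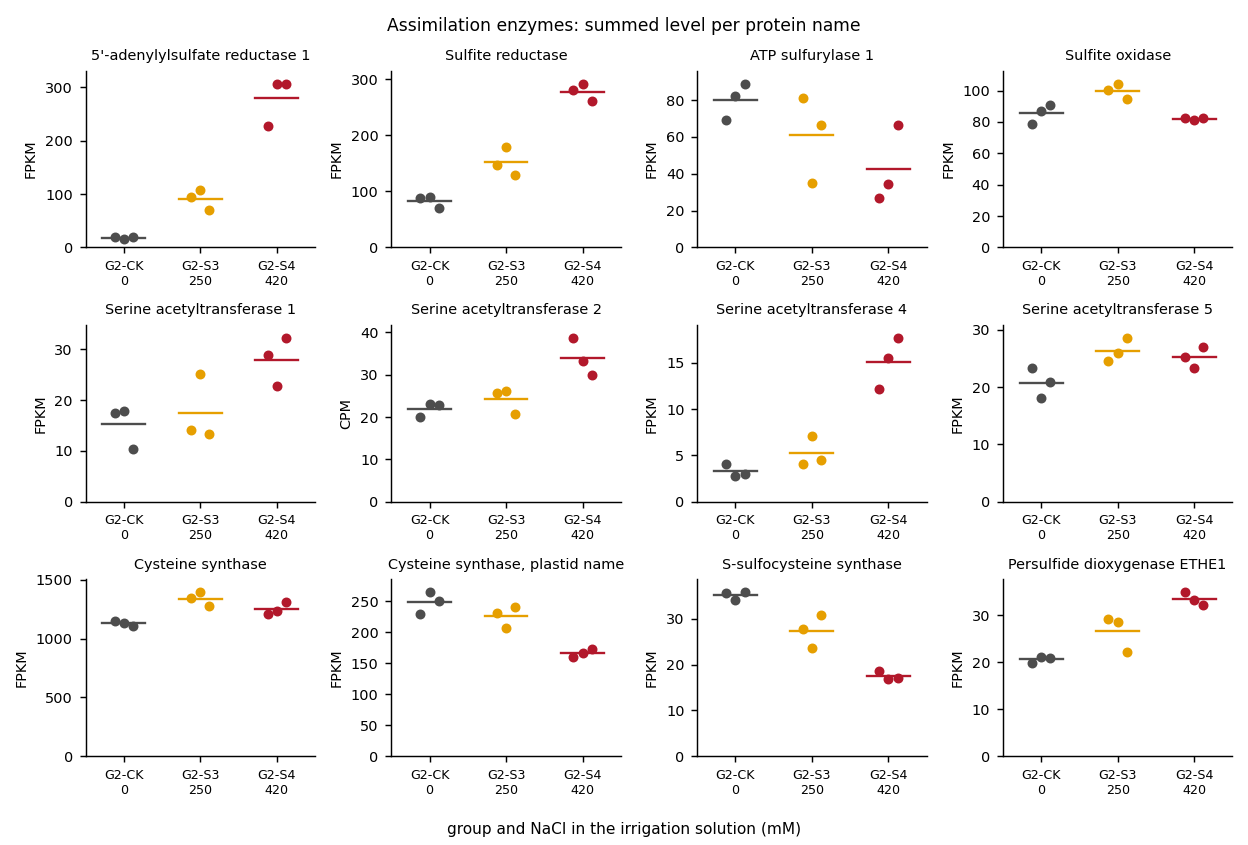
Summed level (vertical axes, each from 0, in FPKM, and in CPM for serine acetyltransferase 2) of 12 enzyme names of sulfur assimilation in the 9 libraries, by group and NaCl in the irrigation solution in mM (horizontal axes), with points for libraries and bars for group means. 5'-adenylylsulfate reductase 1, sulfite reductase, serine acetyltransferase 4 and ETHE1 are highest in G2-S4 and S-sulfocysteine synthase is lowest there, while sulfite oxidase is highest in G2-S3.

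The APS reductase-like proteins, thioredoxin-fold proteins that lack the reductase domain in Arabidopsis thaliana, did not share this increase. The name 5'-adenylylsulfate reductase-like 3, with 128 ± 3.68 FPKM in G2-S4 and 121 ± 7.78 FPKM in G2-CK, was not called (0.09 ± 0.07, adjusted p = 0.286). Names 4, 5 and 6 were slightly lower in G2-S4 than in G2-CK, by log2 fold changes of -0.37 (adjusted p = 0.00935), -0.46 (adjusted p = 0.0132) and -0.33 (adjusted p = 0.0184). The last of these calls was lost without G2-CK replicate 2 or G2-S4 replicate 2 or 3, with adjusted p from 0.0514 to 0.0626. In G2-S3 vs G2-CK only name 4 was called (-0.32, adjusted p = 0.0498), and this was lost under 9 of 15 alternatives, among them the replicate block and 7 of the 9 left-out libraries, with adjusted p up to 0.163. The most abundant unigenes of the role, Cluster-14027.150686 and Cluster-14027.150684 of name 3 and Cluster-14027.147267 of name 4, had log2 fold changes of 0.25, 0.10 and 0.00 in G2-S4 vs G2-CK, none of them called.

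The mean level of sulfite oxidase stood on opposite sides of the control at the 2 doses, by small amounts. Its 20 unigenes summed to 82.3, 81.4 and 82.8 FPKM in G2-S4, below the 100.3, 104 and 94.7 FPKM in G2-S3, and the log2 fold change between the doses was -0.34 ± 0.08 (adjusted p = 0.00868). The controls, with 79.0, 87.0 and 90.5 FPKM, lay below every G2-S3 library and around the G2-S4 libraries, and neither dose passed the test against them (0.26, adjusted p = 0.051 in G2-S3, and -0.09, adjusted p = 0.385 in G2-S4). Cluster-14027.114284 followed the sum, with 17.9 ± 0.743 FPKM in G2-S4 and 26.1 ± 0.752 FPKM in G2-S3 (-0.46, edgeR adjusted p = 0.0156), and its call was lost without G2-S3 replicate 1 or G2-S4 replicate 2 or 3 (adjusted p up to 0.0549). The other abundant copies, Cluster-14027.114293 and Cluster-14027.114286, were not called in any comparison. A pair of scarce copies, named after their values were seen, rose in G2-S4: Cluster-14027.228567 stood at 5.21 ± 1.18 FPKM in G2-S4 against 0.903 ± 0.438 FPKM in G2-CK (2.66, edgeR adjusted p = 0.000842), and Cluster-14027.98035 at 3.25 ± 0.872 against 0.843 ± 0.223 FPKM (2.08, edgeR adjusted p = 0.00157).

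Serine acetyltransferase makes the carbon acceptor for sulfide, O-acetylserine, and all 5 of its names were higher in G2-S4 than in G2-CK. Serine acetyltransferase 4 had 12.1, 15.5 and 17.7 FPKM in G2-S4 against 4.04, 2.83 and 3.05 FPKM in G2-CK, a log2 fold change of 1.84 ± 0.25 (adjusted p = 0.000366), and was also higher than in G2-S3 (1.29 ± 0.25, adjusted p = 0.00413). Serine acetyltransferase 3, a single unigene, was listed only in the G2-S4 libraries, at 1.22, 1.95 and 1.78 FPKM, at least 5.5-fold above the listing limit, and under the replicate block it missed the threshold (adjusted p = 0.0563). It passed the filter on low counts through the G2-S4 libraries alone. Names 1 and 2 rose by 0.96 ± 0.25 (adjusted p = 0.0105) and 0.62 ± 0.12 (adjusted p = 0.00273).

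Serine acetyltransferase 5 rose at both doses by 0.37 (adjusted p = 0.0499 in G2-S3 and 0.0199 in G2-S4), standing at 25.2 ± 1.91 FPKM in G2-S4 against 20.8 ± 2.64 FPKM in G2-CK. Its call in G2-S3 was lost under 13 of 15 alternatives, every left-out library but G2-CK replicate 1 among them (adjusted p up to 0.176), and that in G2-S4 without G2-CK replicate 2 or 3 or G2-S4 replicate 1 or 3 (adjusted p from 0.0636 to 0.0902). Cluster-14027.120700, a unigene of this name, had a log2 fold change of 0.46 in G2-S4 (edgeR adjusted p = 0.0357), and its call was lost under 8 alternatives, among them without G2-CK replicate 2 or 3, G2-S3 replicate 1 or G2-S4 replicate 1 or 3 (adjusted p up to 0.13). Of name 1, Cluster-14027.116512 stood at 18.1 ± 2.91 FPKM in G2-S4 and 9.49 ± 2.67 FPKM in G2-CK (edgeR adjusted p = 0.00908). Cluster-14027.148137, a piece of 217 bp named serine acetyltransferase 2 and thus shorter than the fitted fragment lengths of 274 to 296 bp, reached 38.1 FPKM in G2-S4 replicate 3 and 78.5 FPKM in G2-CK replicate 3 and was unlisted in 6 libraries. Since this piece moves the summed FPKM of name 2, its counts scaled to library size (CPM) are given, 38.6, 33.3 and 29.9 in G2-S4 against 20.1, 23.1 and 22.8 in G2-CK.

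The enzyme that closes the pathway, cysteine synthase, moved in opposite directions under its different names, with small increases and larger falls in G2-S4 vs G2-CK. The plain name cysteine synthase, with 16 unigenes, had the highest summed FPKM of the member names, at 1132 ± 22.3 FPKM in G2-CK, 1340 ± 58.4 FPKM in G2-S3 and 1250 ± 53.1 FPKM in G2-S4. In CPM, which does not divide by length, it had 269 in G2-CK, 329 in G2-S3 and 310 in G2-S4 and was not the highest, as the plastid name had 357 in G2-CK and sulfate transporter 3.1 had 835 in G2-S4. Its log2 fold changes of 0.21 in G2-S4 (adjusted p = 0.0454) and 0.29 in G2-S3 (adjusted p = 0.0328) vs G2-CK passed the test, but the calls were lost under 13 and 8 of 15 alternatives, with adjusted p up to 0.205 and 0.151, among them without any 1 of the G2-CK libraries, G2-S3 replicate 1 or 2 or G2-S4 replicate 2 in both, and without G2-S3 replicate 3 or G2-S4 replicate 3 in the first. A fragment of 380 bp, Cluster-14027.160498, held 64.2% of the FPKM of this name and had log2 fold changes of 0.43 in G2-S4 and 0.54 in G2-S3 (edgeR adjusted p = 0.0189 and 0.0239), lost without G2-CK replicate 2 or 3 in both comparisons, without G2-S4 replicate 3 in the first and without G2-S3 replicate 1 or 2 in the second (adjusted p up to 0.103). The call of this fragment in G2-S3 was also lost under the replicate block. Of the other abundant unigenes, Cluster-14027.158653, with 1435 bp, stood at 151 ± 10.2 FPKM in G2-S4 and 119 ± 6 FPKM in G2-CK (0.48, edgeR adjusted p = 0.00494), and Cluster-14027.154508, with 254 bp, was not called.

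The plastid name, cysteine synthase, chloroplastic/chromoplastic, had 160, 166 and 174 FPKM in G2-S4 against 230, 264 and 249.9 FPKM in G2-CK and fell by 0.54 on the log2 scale (SE 0.08, adjusted p = 0.000739), with 9 of 23 tested unigenes lower and 0 higher. S-sulfocysteine synthase, a plastid relative that joins thiosulfate to O-acetylserine in Arabidopsis thaliana, had 18.6, 16.9 and 17 FPKM in G2-S4 against 35.5, 34.1 and 35.7 FPKM in G2-CK, a log2 fold change of -0.95 ± 0.13 (adjusted p = 0.000333). Both names were also lower in G2-S4 than in G2-S3, by log2 fold changes of -0.43 (adjusted p = 0.00457) and -0.56 (adjusted p = 0.00961), and neither was called in G2-S3 vs G2-CK. Cysteine synthase 2, whose Swiss-Prot best hits were fungal in all 5 unigenes although their NR hits were grass proteins, rose by 0.27 ± 0.09 in G2-S4 (adjusted p = 0.0316), a call lost without any 1 of the G2-CK libraries, G2-S3 replicate 1 or G2-S4 replicate 1 or 2 (adjusted p up to 0.14). The bifunctional L-3-cyanoalanine synthase/cysteine synthase names C1 and D2 had 3 unigenes and were too scarce to be tested.

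Persulfide dioxygenase ETHE1, on the breakdown side, rose. Its 4 unigenes summed to 19.9, 21.1 and 21.0 FPKM in G2-CK, 29.1, 28.6 and 22.2 FPKM in G2-S3 and 34.8, 33.2 and 32.1 FPKM in G2-S4. The log2 fold change was 0.72 ± 0.10 in G2-S4 vs G2-CK (adjusted p = 0.000497) and 0.36 ± 0.10 in G2-S3 vs G2-CK (adjusted p = 0.0456), the second lost under 11 of 15 alternatives, every left-out library but G2-S3 replicate 3 among them (adjusted p up to 0.183). Between the doses it was 0.35 (adjusted p = 0.0276), lost without G2-S4 replicate 1 (adjusted p = 0.0883) or 2 (adjusted p = 0.0742).

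The increase lay in the scarce copies of ETHE1. Cluster-14027.147461, the most abundant, stood at 17.5 ± 0.765 FPKM in G2-S4 and 18.1 ± 0.645 FPKM in G2-CK and was not called (0.09, edgeR adjusted p = 0.601). Cluster-14027.231386 had 8.62, 8.03 and 7.55 FPKM in G2-S4 against 0.43 FPKM, no listing and 0.47 FPKM in G2-CK (4.45 ± 0.51, edgeR adjusted p = 0.000136), and 3.69, 4.74 and 1.02 FPKM in G2-S3 (3.05, edgeR adjusted p = 0.00837). The severe call of this copy was lost without G2-CK replicate 2, with unlisted values at 0 and without the filter on low counts. The adjusted p reached 0.0628. Cluster-14027.130203 stood at 3.57 ± 0.329 FPKM in G2-S4 against 0.703 ± 0.0751 FPKM in G2-CK (2.48, edgeR adjusted p = 3.54e-05), and its severe call (1.02, adjusted p = 0.0269) was lost without any 1 of the G2-CK libraries and without G2-S3 replicate 1 or 2 (adjusted p up to 0.109). This severe call was also lost without the filter on low counts and under the replicate block. Cluster-14027.189242 stood at 4.29 ± 0.911 FPKM in G2-S4 against 1.6 ± 0.183 FPKM in G2-CK (1.57, edgeR adjusted p = 0.000371) and was not called in G2-S3 (0.50, adjusted p = 0.209). The last 3 copies had been listed by the study from these same libraries, so that their direction is no independent evidence.

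**Figure D5:**
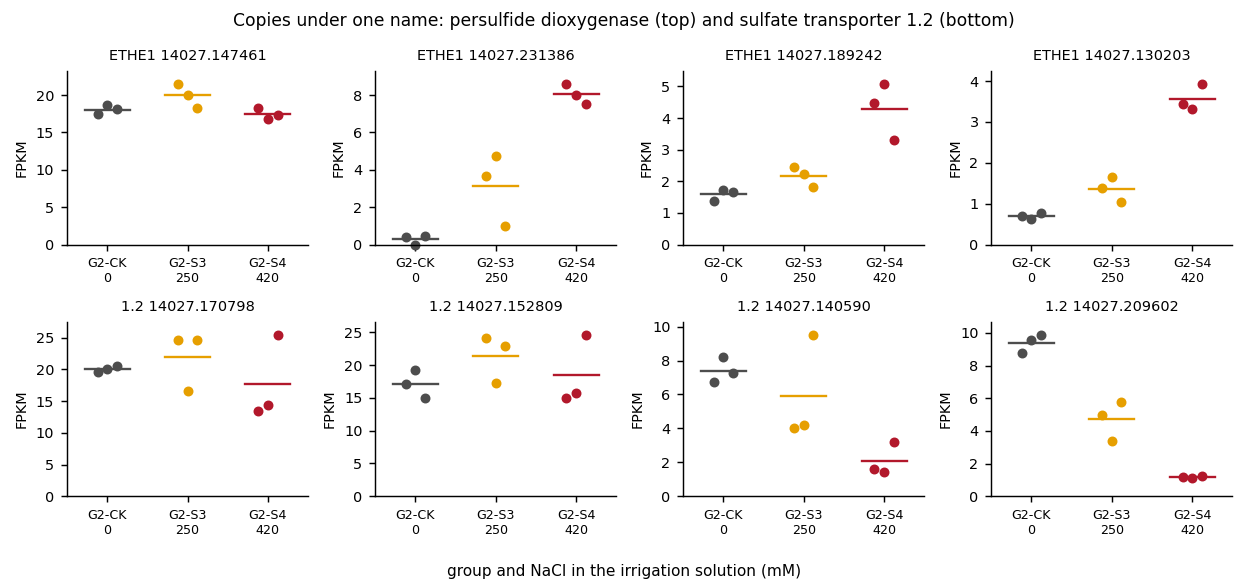
FPKM (vertical axes, each from 0) of the 4 unigenes of persulfide dioxygenase ETHE1 (top row) and of 4 unigenes of sulfate transporter 1.2 (bottom row) in the 9 libraries, by group and NaCl in the irrigation solution in mM (horizontal axes), with points for libraries, bars for group means and unlisted values drawn at 0. The abundant copies on the left overlap between G2-S4 and G2-CK, while the 3 scarce ETHE1 copies are higher and the last pair of sulfate transporter 1.2 copies lower in G2-S4.

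Around the pathway, a short list of genes linked to the low-sulfur response in Arabidopsis thaliana was mostly higher at the extreme dose. It held 6 unigenes of the regulator ETHYLENE INSENSITIVE 3-like 3 and 3 and 2 of SULFUR DEFICIENCY-INDUCED 1 and 2. RESPONSE TO LOW SULFUR, which was also sought, had no unigene. Of 10 tested unigenes in this list, 7 rose and none fell in G2-S4 vs G2-CK, and 2 rose and none fell in G2-S3 vs G2-CK, where 14.2% and 3.42% of all unigenes tested were called higher. SULFUR DEFICIENCY-INDUCED 1, a repressor of glucosinolate synthesis in Arabidopsis thaliana, had 1.44, 1.72 and 2.24 FPKM in G2-CK, 5.24, 3.71 and 7.90 FPKM in G2-S3 and 12.6, 22 and 14.7 FPKM in G2-S4, with log2 fold changes of 3.25 ± 0.32 (adjusted p = 6.07e-05) and 1.68 ± 0.32 (adjusted p = 0.0113) in G2-S4 and G2-S3 vs G2-CK. Here G2-S3 replicate 3 had the highest level of its group. SULFUR DEFICIENCY-INDUCED 2 stood at 21.9 FPKM in G2-S4 against 2.24 FPKM in G2-CK (3.07 ± 0.55, adjusted p = 0.00152). ETHYLENE INSENSITIVE 3-like 3, known as SLIM1 and the central regulator of the low-sulfur response in Arabidopsis thaliana, stood at 11.8, 16.1 and 25 FPKM in G2-CK, G2-S3 and G2-S4, with log2 fold changes of 1.07 ± 0.11 (adjusted p = 8.94e-05) and 0.46 ± 0.11 (adjusted p = 0.0272) in G2-S4 and G2-S3 vs G2-CK.

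The genes that use or release cysteine are read against the 14.2% of all unigenes tested that were higher and the 13.8% that were lower in G2-S4 vs G2-CK. In glutathione synthesis, 9 of 32 tested unigenes were higher and 2 lower in G2-S4 vs G2-CK, with glutamate--cysteine ligases A and B, the first step, up by 0.72 (adjusted p = 0.00173) and 0.60 (adjusted p = 0.00107) and glutathione synthetase, the second step, not called (-0.07, adjusted p = 0.625). In glutathione breakdown, 6 of 30 tested unigenes were higher and 6 lower, with gamma-glutamylcyclotransferase 2-3 up by 0.44 (adjusted p = 0.00824) and putative gamma-glutamylcyclotransferase At3g02910 at -0.96 (adjusted p = 0.00702). In methionine and S-adenosylmethionine synthesis, 17 of 36 tested unigenes were higher and 1 lower, among the names S-adenosylmethionine synthase 2 by 1.59 (adjusted p = 0.00421), adenosylhomocysteinase, with 179 FPKM in G2-S4 against 124 FPKM in G2-CK (adjusted p = 0.00263), and cystathionine gamma-synthase 1, which leads cysteine toward methionine, by 0.85 (adjusted p = 0.000854).

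In the sulfation branch, which competes with APS reductase for APS, 7 of 58 tested unigenes were higher and 5 lower in G2-S4 vs G2-CK, both shares being under those over all unigenes tested. Cytosolic sulfotransferase 11 rose in G2-S4 (2.04, adjusted p = 0.000835), as did name 18 (0.40, adjusted p = 0.0143). Cytosolic sulfotransferase 1 had 1 FPKM in G2-CK, 11.9 FPKM in G2-S3 and 3.28 FPKM in G2-S4 and rose at both doses (3.58, adjusted p = 0.00441 in G2-S3, and 1.64, adjusted p = 0.0287 in G2-S4). Cytosolic sulfotransferase 13, unlisted in G2-CK, was called at both doses at 0.39 to 2.1 FPKM in the libraries that listed it, with unlisted values as 0. Its mean in G2-S4, 0.283 FPKM, lay under the 0.3 FPKM that an unlisted control may hold, so that a rise at this dose is not shown. None of the 3 adenylyl-sulfate kinase names of this branch was called (edgeR adjusted p = 0.0571 to 0.939 in G2-S4 vs G2-CK), and the 3'(2'),5'-bisphosphate nucleotidase, which clears the by-product of sulfation, fell by 0.71 on the log2 scale (adjusted p = 0.000129). In the list of sulfur release and persulfide enzymes, which also holds names of molybdenum cofactor synthesis, 9 of 71 tested unigenes were higher and 11 lower, shares close to those over all unigenes tested. Of its 15 names, 3 rose, namely mitochondrial cysteine desulfurase, which supplies sulfur for iron-sulfur clusters, by 0.84 (adjusted p = 7.2e-05), putative D-cysteine desulfhydrase 1 by 0.56 and putative L-cysteine desulfhydrase 1 by 0.24. The mitochondrial thiosulfate/3-mercaptopyruvate sulfurtransferase 1 fell by 0.47 (adjusted p = 0.000331), chloroplastic cysteine desulfurase 1 by 0.53 and MOCS3-2, a molybdenum cofactor name, by 0.69. In G2-S3 vs G2-CK these 5 lists had 0 to 5 calls in each direction, where 3.42% of all unigenes tested were higher and 2.33% lower.

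The 52 members that did not pass the filter were mostly scarce, with 14 sulfate transporter, 14 cysteine synthase, 9 serine acetyltransferase, 7 APS reductase-like, 5 sulfite oxidase and 3 ATP sulfurylase unigenes. In at least 1 library of the group, 30 of them were listed in G2-CK, 32 in G2-S3 and 30 in G2-S4. Their highest mean over the 9 libraries was 14.1 FPKM, of the short unigene of serine acetyltransferase 2 named above. By level, 153 of the 240 members averaged at least 1 FPKM and 53 at least 10 FPKM.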

How the data were processed

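Poly(A) RNA of 9 leaf libraries of G2 was sequenced, and the authors assembled unigenes with Trinity and Corset and counted reads with RSEM on bowtie2. Labels name CASAVA 1.8, RSEM and DESeq, and no genome was used. The deposited files give for each library the expected count (estimated by RSEM), the FPKM, computed by the authors on an effective length, and the annotation of unigenes at 0.31 FPKM or more. No deposited column of fold changes was used.

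Expected counts were rounded and fitted over all 9 libraries with edgeR 4.0.16 (quasi-likelihood F-test, two-sided, TMM, filterByExpr with a minimum count of 10 with unlisted values as 0) in R 4.3.3 with limma 3.58.1 and data.table (version 1.17.8), and p-values were adjusted by Benjamini-Hochberg with a threshold of 0.05. An unlisted value (36.8% of unigene and library pairs) was set to its upper limit in reads at 0.3 FPKM (median 2.11, 95th percentile 19.0), with library totals estimated from counts, FPKM and lengths. Counts of all unigenes under one Swiss-Prot name were summed, unlisted ones as 0, and fitted in the same way. Tables, figures and checks used Python 3.11.15, numpy 2.4.6, pandas 2.3.3, scipy 1.17.1 and matplotlib 3.10.9. On simulated counts for G2-S4 vs G2-CK, 69 of 100 unigenes changed 4-fold and 10 of 100 changed 2-fold were recovered among 120774 tested, and 94 of 99 names changed 4-fold and 69 of 100 changed 2-fold among 11799, with 8.1% and 5.2% false calls. Few features were changed in the simulation, while 28.0% of unigenes and 49.4% of names were called in the data. The adjusted threshold is therefore not comparable, and these rates do not give the power of the tests reported here.

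Named unigenes are the 3 with the highest mean FPKM in each role, the 4 largest increases and 4 largest decreases among called members of at least 1 FPKM in each comparison, and the ETHE1 unigenes listed by the study, and others are said to be chosen after their values were seen. The members, gene lists and tests were chosen with earlier results of these data known. Alternatives were unlisted values as 0 or at 0.5 of the limit, RLE factors, no filter, DESeq2 1.42.0, the replicate number as a block, and each library left out. A limit computed from the full length of a unigene, and a separate look at G2-S3 replicate 3, were added after the data were seen. The source of the replicates is given by the series as biological, and p-values measure the spread between these pots.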

Additional observations from a re-analysis of the deposited data

Results flagged for a closer look

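In 4 results the fitted log2 fold changes of the 2 doses against the control had opposite signs and G2-S4 differed from G2-S3 by edgeR's test. Sulfite oxidase, as a sum of its unigenes, had a log2 fold change of -0.34 in G2-S4 vs G2-S3 (adjusted p = 0.00868), with -0.09 in G2-S4 and 0.26 in G2-S3 vs G2-CK. Its unigene Cluster-14027.114284 had -0.46 between the doses (adjusted p = 0.0156), with -0.09 and 0.36 against G2-CK, so that neither dose was called against the control for the sum or for this unigene. Low affinity sulfate transporter 3 had -0.49 between the doses (adjusted p = 0.023), with -0.41 in G2-S4 and 0.08 ± 0.14 (SE) in G2-S3 vs G2-CK, where the mean level was 15.7 FPKM in G2-S3 and 15.9 FPKM in G2-CK so that the sign in G2-S3 depends on the unit, and missed the threshold between the doses without G2-S3 replicate 2, without G2-S4 replicate 1 or 2 and under the replicate block (adjusted p from 0.0549 to 0.0841). Its unigene Cluster-14027.75358 had -1.65 (adjusted p = 0.00718), with -1.55 and 0.10. The last 2 were not called in G2-S3 vs G2-CK (adjusted p = 0.737 and 0.894), so that only the difference between the doses and the fall in G2-S4 passed the test.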

How the results depend on the processing

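No result changed its direction while called, and the protein names 5'-adenylylsulfate reductase 1, sulfite reductase and sulfate transporter 3.3 passed in all 3 comparisons under all alternatives. The severe dose was least stable. With unlisted values as 0, the member unigenes called were 9 higher and 4 lower in G2-S3 vs G2-CK, in place of 27 and 7, and 23 higher in G2-S4 vs G2-S3, in place of 43. Without the filter on low counts, which tests more unigenes, they were 10 and 3 in G2-S3 vs G2-CK and 13 lower in G2-S4 vs G2-S3, in place of 20, and the protein names called in G2-S3 vs G2-CK were 5 higher and 1 lower, in place of 8 and 3. DESeq2 called 11 lower unigenes in G2-S3 vs G2-CK. The cause of these moves was not tested. With 1 library left out, G2-S3 vs G2-CK had 6 to 34 unigenes called higher and 3 to 9 lower, and 3 to 9 protein names higher and 1 to 4 lower. For the extreme dose against the control the ranges were 57 to 68 and 24 to 36 unigenes and 11 to 13 and 7 to 11 names, and between the 2 doses 34 to 47 and 11 to 24 unigenes and 6 to 11 and 5 to 9 names.

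Pots stood in randomized blocks, but no label ties the replicate number to one, and deviations of same-numbered libraries correlated at -0.137 to 0.0308 for names and -0.11 to 0.0395 for unigenes. With a replicate block, 17 unigenes and 4 protein names were called higher in G2-S3 vs G2-CK, and the other counts stayed within 1.5 times. Reads limit the scarce members, since an unlisted value can stand for up to 19 reads at the 95th percentile.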
